A study of Saccharomyces cerevisiae with 76 samples.

Results

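The genes described here code for ribosome biogenesis factors of *Saccharomyces cerevisiae*, and the measurement is binding of the transcription factor Abf1 before its depletion. Members were taken by name: nuclear protein-coding genes of the R64 (sacCer3) annotation whose symbol is UTP, NOP, RRP, NOC or NSA followed by a digit, together with MPP10, IMP3, IMP4, NOG1, NOG2, NAN1, DIP2, PWP2 and SOF1. This gave 67 of the 6002 nuclear protein-coding genes. An Abf1 peak was assigned to a gene when its summit lay inside the ORF or at most 1000 bp upstream of the start codon. With this rule 20 of the 67 genes (29.9%) had a peak, against 19.4% of all genes, and they held 21 of the 948 summits in the list.

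Abf1 was measured by ChIP-seq (sequencing of DNA that co-purifies with a protein after cross-linking) in the anchor-away strain of the study. This is BY4742 of mating type MATalpha with tor1-1, fpr1del and RPL13A-FKBP12-NAT, in which Abf1 carries the FRB-yEGFP-3V5-hphMX4 tag, and the antibody recognised V5. The cells at t = 0 had no rapamycin but 90 min of DMSO, so Abf1 was not depleted in them. The series has 76 samples over 11 time points from 0 to 90 min, inputs and the untagged control strain included, and the untagged strain carries the same tor1-1, fpr1del and RPL13A-FKBP12 alleles. The peak list combines the 3 t = 0 immunoprecipitations against their 3 inputs, so that each peak has a single pooled value without an error between cultures. The later time points and the untagged strain were not analysed here. The tag alone slows growth of the strain somewhat. Every cell in the experiment also carries an allele of the TOR pathway and a tagged ribosomal protein gene.

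Ribosome biogenesis factors are the assembly machinery of the ribosome. They are not part of the finished particle but modify, fold and cut the ribosomal RNA precursor and load ribosomal proteins onto it, starting in the nucleolus with a large particle called the small subunit (SSU) processome. Their genes are among the most strongly growth-regulated genes of yeast, respond to TOR signalling as a group, and commonly carry PAC and RRPE elements in their promoters. PAC is recognised by the repressors Dot6 and Tod6, and RRPE by Stb3. Abf1 is a general regulatory factor: an abundant, essential protein that binds a bipartite DNA motif in many promoters and helps to keep them free of nucleosomes.

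The signal of a peak is its fold enrichment, the ratio of fragments at the summit to the expected background from input DNA after adding 1 to both, as the peak caller gives it. Fragment numbers were recovered from this ratio and the p-value together. They were 291 to 3997 at the 21 summits, over a background of 124.7 to 160.2 fragments. Intervals given with a fold enrichment below are 95% Poisson intervals of the fragments at the summit, with the background held fixed. They cover counting error only and do not replace the spread between cultures.

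The Abf1 consensus has 13 positions: a purine, TC, a purine, a pyrimidine, a stretch in which any base is allowed, and ACG. It was searched on both strands with the midpoint within 100 bp of each summit. Counting from the midpoint at 0, the consensus runs from −6 to +6 bp, and Abf1 is known to be cross-linked efficiently by formaldehyde where the base at −8 bp is G or C, but not where it is A or T. An exact match stood beside 18 of the 21 member summits. The matches at the summits with a fold enrichment of 10 or more are shown first, because these are the member summits of high enrichment with an exact match. Each sequence is that of the reference genome from −10 to +10 bp on the strand of the motif, capitals mark the 13 positions of the consensus, and the third base is the one at −8 bp.
SOF1, chrXII:127388-127408, minus strand: atgtATCGTTATGCACGgtga
UTP13, chrXII:581884-581904, plus strand: ttcaGTCGCTTTACACGgata
UTP18, chrX:312825-312845, minus strand: tggcATCACATCCGACGaatt
NOP53, chrXVI:277693-277713, minus strand: tacaGTCATATTTGACGaaat
NOG2, chrXIV:723305-723325, minus strand: acctGTCATTTAGCACGtttt
RRP45, chrIV:1020496-1020516, plus strand: tattGTCACTACCAACGaatg
UTP8, chrVII:750250-750270, minus strand: ttttGTCATTCTACACGgaaa

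The summits upstream of NOP14 and NOC4 also passed a fold enrichment of 10 but had no exact match. With 1 mismatch allowed at the purine and pyrimidine positions, each had a match that departs from the consensus at −6 bp, its first position. These sequences were added after the values were seen, because they are the ones that the exact search missed.
NOP14, chrIV:190719-190739, plus strand: ttcaCTCGTTCTGTACGgctc
NOC4, chrXVI:822159-822179, minus strand: tgcgCTCACGTTGCACGaaca

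Fold enrichment was next compared between the complexes that the factors form. These groups hold 2 to 20 genes each, and 19.4% of all genes have a summit by the same rule. Whether the share of any group differs from that was not tested. The UTP-A complex (also t-UTP) is the first to assemble on the nascent precursor, and 3 of its 7 genes had a summit. UTP8 had a fold enrichment of 10.8 (10.3 to 11.4, from 1673 fragments), at 750265 on chromosome VII and 174 bp upstream of its start codon. UTP15 followed with 5.36 (4.99 to 5.76), and UTP5 had the lowest value of the complex, 2.76 (2.49 to 3.06). The intervals of the 3 summits do not overlap, so within counting error UTP8 was the highest and UTP5 the lowest. UTP4, UTP9, UTP10 and NAN1 had no listed summit.

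UTP-B, a complex built largely of WD40 repeat proteins, had a summit at 2 of its 6 genes, with higher values than UTP-A. Both of these summits have a G or C at −8 bp of the match, whereas the 3 UTP-A summits have a T. The part of cross-linking in this difference was not tested. UTP13 had a fold enrichment of 24.4 (23.6 to 25.2, from 3389 fragments), with the summit at 581889 on chromosome XII and 118 bp upstream. UTP18 had 21.1 (20.3 to 21.9, from 2883 fragments), at 312847 on chromosome X and 141 bp upstream. These are ranks 88 and 119 of all 948 summits. The other 4 of the 6 UTP-B genes (PWP2, UTP6, DIP2 and UTP21) had no listed summit, so the peak list covers the smaller share of this complex. In UTP-C, RRP7 had a fold enrichment of 4.57 (4.23 to 4.94) and its partner UTP22 had none listed.

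None of the 3 genes of the MPP10 complex (MPP10, IMP3 and IMP4), which joins the U3 snoRNA to the precursor, had a summit. Among the 5 genes of snoRNP proteins that the symbols take in, 3 had a summit. SnoRNPs guide modification and folding of the RNA. The fold enrichment was 4.02 (3.68 to 4.39) at RRP9, the U3-specific protein, and 3.38 (3.09 to 3.69) at NOP58, a core protein of box C/D particles. At NOP1, the methyltransferase of those particles that is called fibrillarin in other species, it was 2.20 (1.97 to 2.45). NOP56 and NOP10 had no listed summit. NHP2, a core protein of H/ACA particles outside the naming rule and added after the values were seen, had 8.41.

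Of the 17 other small-subunit factors, 5 had a summit, and the highest value of all members is among them. SOF1, a WD40 protein of the SSU processome, had a fold enrichment of 27.3 (26.5 to 28.2, from 3997 fragments), with its summit at 127408 on chromosome XII and 115 bp upstream of the ORF (127523 to 128992, plus strand). It ranks 72 of 948 in the list. NOP14 and NOC4, whose proteins bind each other and are needed for maturation of the small subunit, had 17.3 (16.7 to 18.1) and 17.2 (16.6 to 17.9), and these intervals overlap almost completely. RRP12, a HEAT repeat protein involved in export of subunits, had 6.95 (6.53 to 7.39), and UTP20, a very large protein of the processome, had 3.22 (2.93 to 3.53). The remaining 12 genes of this group (NOP6, UTP25, UTP7, NOP19, RRP3, NOP9, UTP11, UTP30, UTP14, RRP5, UTP23 and RRP36) had no listed summit.

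Large-subunit factors had a summit in 5 of 20 genes. NOP53, which helps to recruit the exosome to the pre-60S particle, had a fold enrichment of 16.4 (15.8 to 17.1) from 2314 fragments, and NOG2, a GTPase of late nuclear assembly, had 12.3 from 1584 fragments. RRP8, a methyltransferase of the large ribosomal RNA, had 7.53 (7.07 to 8.00). NOP12 had 2 summits of 2.45 and 2.19 within a single interval and NOC2 had 2.03 (1.81 to 2.28), so these genes lie at the minimum of the list. Without a listed summit were RRP1, RRP17, NOP16, NSA1, NSA2, NOP7, RRP14, NOC3, NOP13, NOP15, NOP2, NOP8, NOG1, NOP4 and RRP15. Of the 7 subunits of the RNA exosome with an RRP symbol, RRP45 alone had a summit (12.1, 11.5 to 12.7, from 1717 fragments), at 1020491 on chromosome IV and 256 bp upstream. RRP4, RRP6, RRP40, RRP42, RRP43 and RRP46 had none listed. The exosome trims the precursor, and its cofactor gene LRP1, outside the naming rule and added in the same way, had a summit of 5.57.

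**Figure D1:**
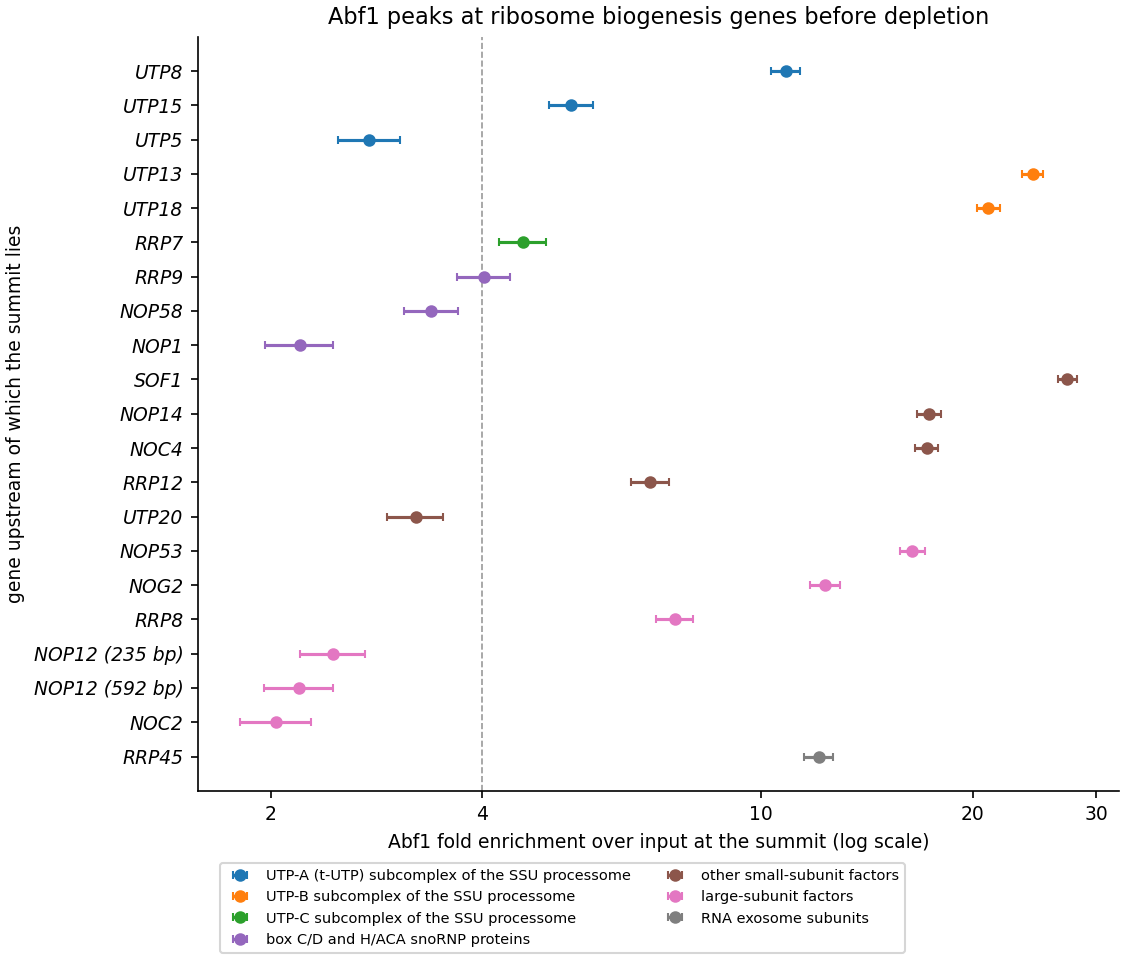
Fold enrichment over input (log axis) at the 21 Abf1 summits upstream of ribosome biogenesis genes, ordered by the complex or group of the protein; bars are 95% Poisson intervals of the fragments at the summit, and the dashed line marks a fold enrichment of 4. SOF1 (27.3), UTP13 (24.4) and UTP18 (21.1) stand highest, whereas the 3 snoRNP genes plotted lie between 2.20 and 4.02. The former have a G or C at −8 bp of the match and the latter an A, and the part of this base in the difference was not tested.

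Read against the whole annotation, 29.9% of the members (20 of 67, 95% Wilson interval 20.2% to 41.7%) had a summit, and the same rule gave 19.4% of all 6002 genes. A fold enrichment of 4 or more, the first cut that the study made on peaks, was reached by 14 members (20.9%, 12.9% to 32.1%) against 9.88% of all genes. For 10 or more it was 9 members (13.4%, 7.23% to 23.6%) against 5.51%. The study further required a G or C at −8 bp of every match. By the exact consensus, 7 of the 12 member summits with a match and a fold enrichment of 4 or more had one. RRP45, UTP8, UTP15, RRP7 and RRP9 had an A or T there instead, so by this search they fail that requirement. NOP14 and NOC4 had no exact match. The study found its matches by a motif score, and its list of sites was not compared here. For all 3 cuts (any listed summit, 4 or more, and 10 or more) the share over all genes lies below the interval of the members. For any listed summit the margin is narrow, 19.4% against a lower bound of 20.2%. The intervals treat genes as independent. No test of the difference was made, since the members were chosen, by symbol, with earlier results of these data known. The median fold enrichment was 6.95 over the 21 member summits (quartiles 3.22 and 16.4) and 3.72 (2.66 and 10.2) over the 805 other summits that meet the rule for a protein-coding gene. Of those 805, 152 (18.9%) lie inside tRNA genes, against 1 of the 21. Over the 717 summits of the whole list outside tRNA genes, members included, the median was 4.74 (2.65 and 15.3), which is nearer to that of the members.

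Other gene families were set beside the members with the same rule. Of the 137 cytosolic ribosomal protein genes, which are regulated together with the biogenesis factors but carry different promoter elements, 41 had a summit (29.9%), the same share as among the members, but only 8 (5.84%) reached a fold enrichment of 4. The median over their 51 summits was 2.50, and 8.03% of their promoters (the 400 bp before the start codon) held the Abf1 consensus, against 44.8% for the members. Weak signal across ORFs and tRNA genes is a known artefact of ChIP in yeast, and its part in these shares was not tested. Of the 54 mitochondrial ribosomal protein genes 14 had a summit (25.9%) and 8 (14.8%) reached 4, with a median of 4.97. RNA polymerase subunit genes had a summit most often, 16 of 31 (51.6%), and 7 of them (22.6%) reached 4. For the ribosome biogenesis and the cytosolic ribosomal protein genes, the 95% intervals of the shares with a fold enrichment of 4 or more (12.9% to 32.1% and 2.99% to 11.1%) do not overlap.

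**Figure D2:**
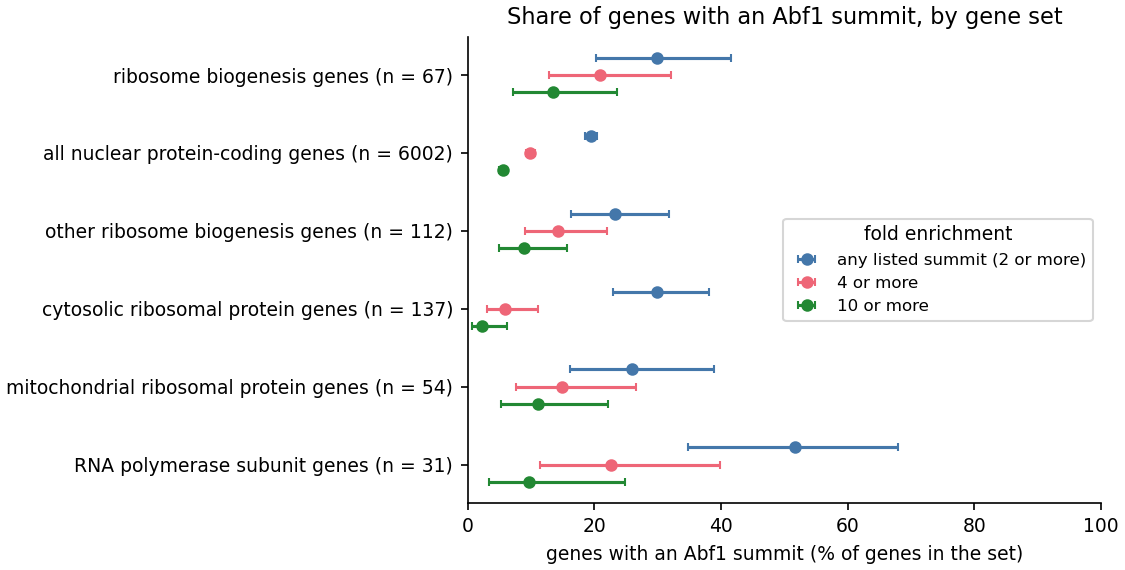
Share of genes with an Abf1 summit inside the ORF or up to 1000 bp upstream, for any listed summit and for a fold enrichment of at least 4 and 10, in the 67 ribosome biogenesis genes, all 6002 genes and 4 other sets; bars are 95% Wilson intervals over genes. For the members the shares are 29.9%, 20.9% and 13.4%, and for all genes 19.4%, 9.88% and 5.51%.

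The symbols of the rule do not name every ribosome biogenesis factor, and a second list of 112 such genes was examined in the same way. Of these, 26 (23.2%, 95% Wilson interval 16.4% to 31.8%) had a summit. A fold enrichment of 4 was reached by 16 (14.3%, 8.99% to 22.0%) and one of 10 by 10 (8.93%, 4.92% to 15.7%). Unlike those of the members, these intervals include the shares over all genes, 19.4%, 9.88% and 5.51%. Every one of the 26 highest summits lay upstream of the ORF. The highest were at FCF1, the nuclease of the SSU processome (46.7, 157 bp upstream), RPF2, which brings the 5S particle to the large subunit (39.8, 156 bp), and the helicase gene DBP6 (34.8, 136 bp). BRX1 and SSF2, both large-subunit factors, followed with 26.3 and 23.3. FCF1, RPF2 and DBP6 thus exceed SOF1, but the share of the list with a summit lies nearer to that of all genes than the share of the members does.

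All 21 member summits lay upstream of the start codon and none inside the ORF of the member. Counting any ORF, 1 of the 21 (4.76%) and 15.1% of all 948 summits lie inside one. The distance to the start codon was 115 to 742 bp with a median of 196 bp (quartiles 141 and 256), and 18 of the 21 lay between 100 and 350 bp. For the 891 pairs of another gene and an upstream summit outside tRNA genes, the median was 304 bp (171 and 518.5), and 53.5% lay between 100 and 350 bp. The 3 distant summits were those at NOC4 (742 bp), UTP20 (514 bp) and the second of NOP12 (592 bp). The UTP20 summit is inside a tRNA gene and the second NOP12 summit inside the ORF of RPS15, a cytosolic ribosomal protein gene. Summits in tRNA genes make up 231 of the 948. The part of the ChIP artefact at tRNA genes in the value of UTP20 was not tested.

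The limit of 1000 bp did not cut through a cluster of summits. The farthest summit inside it was that of NOC4 at 742 bp, and the nearest one beyond it lay 1428 bp upstream of RRP17, with a fold enrichment of 3.41. At the other limit, the lowest member peak was that of NOC2 (2.03), just above the minimum of 2 in the authors' call. RRP9 (4.02) and NOP58 (3.38) lie on either side of 4, and the interval of RRP9 includes 4.

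At 8 summits the promoter is shared with a divergent gene that also meets the rule, so that the peak cannot be assigned to the member alone. The partners are RPN5 of the proteasome for NOP14, the asparagine synthetase gene ASN1 for NOC4, the splicing factor gene SYF2 for UTP8, and MRPS16 of the mitochondrial ribosome for RRP12. The actin-regulating AIP1 stands opposite UTP15, NCB2 of the NC2 repressor opposite UTP5, TSC13 of fatty acid elongation opposite NOP1, and GEP3 opposite NOC2. The summit lay nearer to the start codon of the partner at 5 of them (ASN1, SYF2, MRPS16, TSC13 and GEP3). At NOC4, for example, the summit at 822165 on chromosome XVI was 742 bp from NOC4 and 455 bp from ASN1, and at NOC2 it was 195 bp from NOC2 and 83 bp from GEP3. For the 3 strongest members, SOF1, UTP13 and UTP18, no other gene met the rule.

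The exact consensus was present at 18 of 21 member summits (85.7%, with a lower 95% Wilson bound of 65.4%) and at 548 of the 717 summits outside tRNA genes in the whole list (76.4%). At the members it lay 5 to 74 bp from the summit, with a median of 16.5 bp, and at most 51 bp where the fold enrichment was 4 or more. Relative to the start codon, the midpoint of the motif was 123 to 569 bp upstream with a median of 168 bp. The motif was on the coding strand of the gene at 12 and on the opposite strand at 6 of the 18. Among the summits without an exact match were NOP14 and NOC4, shown above, and the second summit of NOP12.

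The base at −8 bp divided the member summits. A G or C was present at 7 of the 18 (38.9%, 20.3% to 61.4%): SOF1, UTP13, UTP18, NOP53, NOG2, RRP8 and RRP12. Their fold enrichment ran from 6.95 at RRP12 to 27.3 at SOF1, with a median of 16.4. An A or T was present at the other 11, with values from 2.03 at NOC2 to 12.1 at RRP45 and a median of 3.38. The paper reports that low signals at sites lacking a G or C there did not fall during depletion. It gives rebinding of cytosolic Abf1 in the course of the ChIP as their likely source, and it left such sites out. Whether this holds for the 11 member summits was not tested. The groups overlap through RRP45 and UTP8 (10.8), which exceed RRP8 and RRP12 with a T at −8 bp. Both near-matches at NOP14 and NOC4 have a C there. The shares and the medians resemble those over the other 805 summits, of which 38.9% of those with a consensus had only G or C (median fold enrichment 15.4) and 55.4% only A or T (median 4.02). The pattern across the whole list was known before these members were chosen, so the members are not independent support for it.

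**Figure D3:**
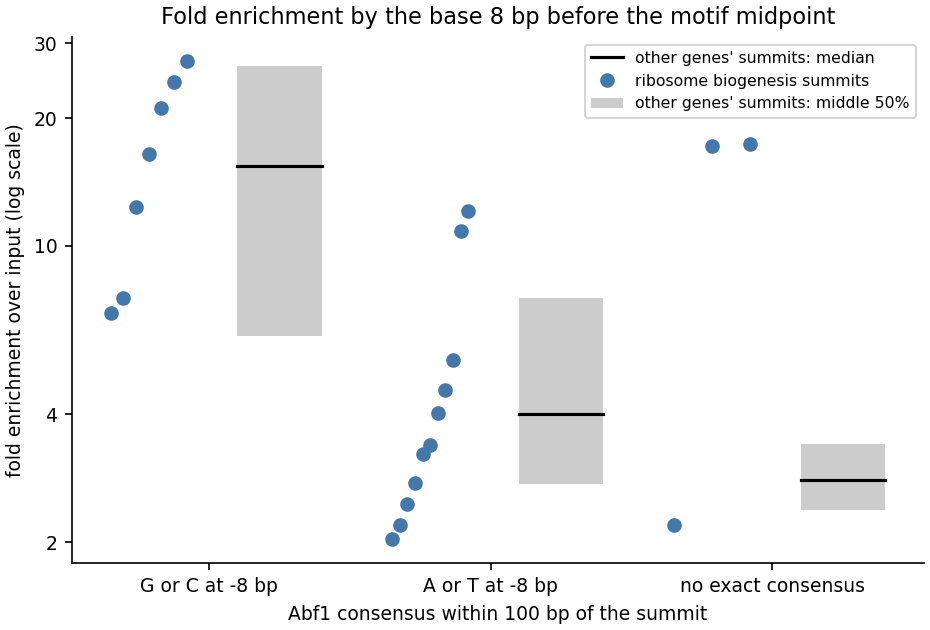
Fold enrichment (log axis) at ribosome biogenesis summits (points) by the base 8 bp before the midpoint of the Abf1 consensus, beside the median (line) and middle 50% (grey bar) of other genes' summits. The 7 member summits with G or C lie between 6.95 and 27.3 and the 11 with A or T between 2.03 and 12.1; NOP14 and NOC4 are the 2 high points without an exact consensus.

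The members without a peak were searched for the consensus as well, in the 400 bp before each start codon. Counted this way, 30 of the 67 members (44.8%, 33.5% to 56.6%) held an exact match, against 15.8% of all genes. The share was 51.6% for RNA polymerase subunit genes, 29.6% for mitochondrial ribosomal protein genes and 31.3% for the second list of biogenesis genes. Of these promoters, 17 belong to members with a summit and 13 to members without one: RRP43, PWP2, RRP1, UTP25, NSA2, NOP7, RRP3, UTP9, UTP11, NOP56, RRP5, NAN1 and NOG1. All 13 matches without a listed peak have an A or T at −8 bp. Conversely, all 7 member promoters whose match has a G or C had a summit within 100 bp of it, and of the 23 with an A or T 10 had one (43.5%, 25.6% to 63.2%). In the promoters of other protein-coding genes, a summit lay within 100 bp of 160 of 197 matches with G or C (81.2%) and of 271 of 627 with A or T (43.2%). The share for A or T in members therefore differs little from that elsewhere. In the peak list, a consensus that is not occupied and one that is occupied but poorly cross-linked cannot be told apart, and the absence of a listed summit says only that no peak passed the thresholds.

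PAC and RRPE were located in the same 400 bp windows, as the letters GCGATGAG and AAAAATTTT on either strand. PAC was found in 32 members (47.8%, 36.3% to 59.5%) and in 4.60% of all genes, and RRPE in 35 members (52.2%, 40.5% to 63.7%) and in 8.58% of all genes. At least 1 of them was present in 48 members (71.6%) against 11.3% of all genes. The second list of biogenesis genes gave 44.6% and 65.2%, and the cytosolic ribosomal protein genes 0.730% and 5.84%. RNA polymerase subunit genes had PAC in 22.6% and RRPE in 51.6%, the latter close to the share of the members. Presence of an Abf1 summit did not separate the members with these elements from the rest. Among the 20 members with a summit 8 had PAC and 12 RRPE, and among the 47 without a summit 24 had PAC and 23 RRPE. The strongest members vary in this too: SOF1 and UTP18 had neither element, UTP13 had PAC and NOP53 had RRPE.

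The distances of the 3 elements from the start codon were compared next. In all members, the consensus matches lay 123 to 283 bp upstream of the start codon with a median of 171.5 bp, RRPE matches at a median of 138 bp and PAC matches at a median of 124.5 bp. Of the 19 promoters with both the Abf1 consensus and RRPE, RRPE was nearer to the start codon in 18, and its midpoint lay a median of 30 bp downstream of that of the consensus. Of the 16 with the consensus and PAC, PAC was nearer in 14, a median of 42.5 bp downstream. In other protein-coding genes, RRPE was nearer in 77 of 124 such promoters and PAC in 35 of 61, with the window of each gene counted on its own. In the members with a summit it was 10 of 10 for RRPE and 6 of 7 for PAC, with UTP8 as the exception, where PAC lies 226 bp upstream, beyond the consensus at 169 bp and towards SYF2. All 3 distances were measured from the start codon, so that they share the layout of the promoter.

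The promoters of NOG2 and UTP13 show this arrangement in sequence. Both are given on the strand of the gene, 5′ to 3′ towards the start codon, with capitals for the Abf1 consensus, PAC and RRPE. In NOG2, the capitals are the Abf1 consensus, then PAC on the opposite strand directly followed by RRPE, and a second RRPE. In UTP13, they are the consensus and PAC, both on the opposite strand.
NOG2, chrXIV:723257-723323, minus strand, 211 to 145 bp upstream: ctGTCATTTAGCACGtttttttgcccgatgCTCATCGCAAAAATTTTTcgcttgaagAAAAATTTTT
UTP13, chrXII:581857-581902, minus strand, 131 to 86 bp upstream: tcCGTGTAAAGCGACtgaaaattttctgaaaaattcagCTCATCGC
The UTP13 stretch also holds AAAATTTT between the capitals, which lacks a base of the RRPE searched for. A match to letters is a description of the sequence, and binding of factors other than Abf1 was not analysed here.

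**Figure D4:**
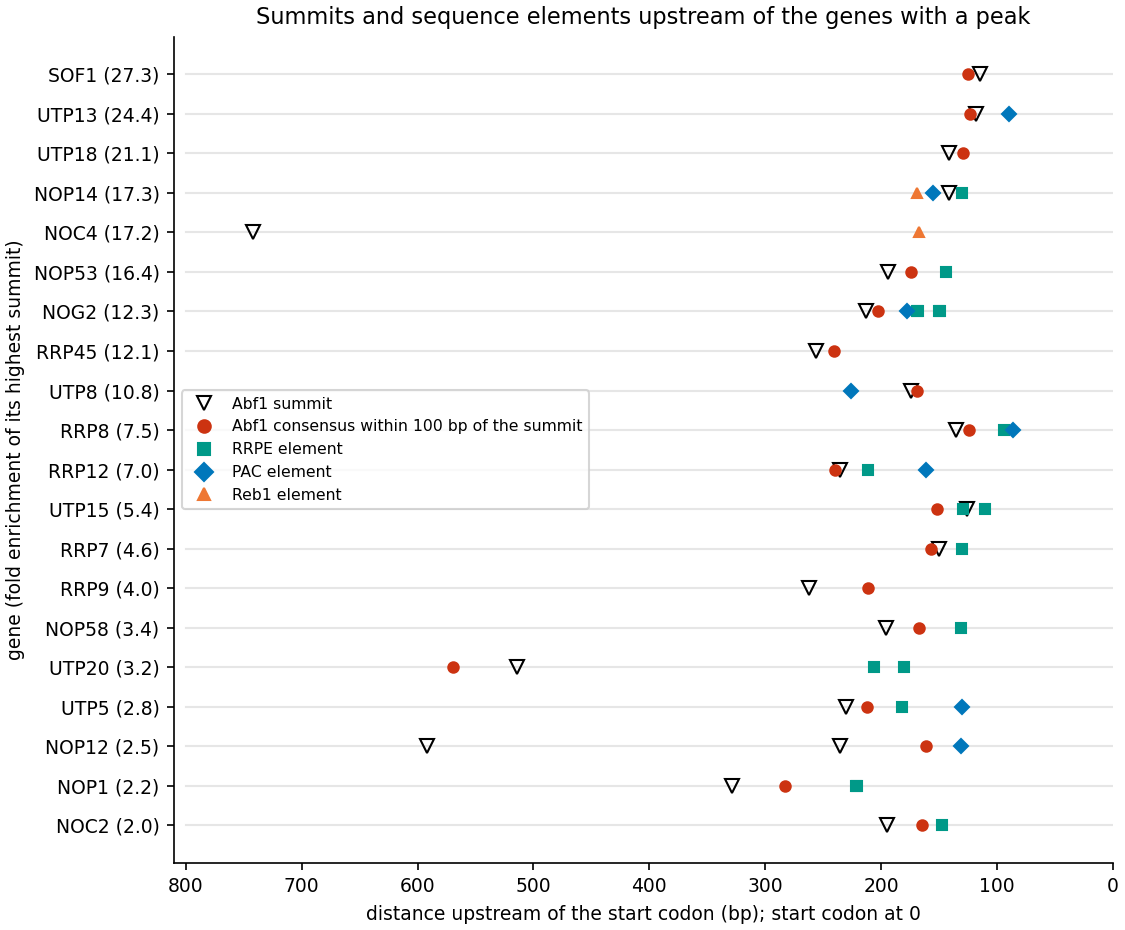
Positions upstream of the start codon (bp, start codon at 0) of Abf1 summits (open triangles), the Abf1 consensus within 100 bp of them, and RRPE, PAC and Reb1 elements within 400 bp (Reb1 as TTACCCG, searched after the values were seen), for the 20 genes with a peak in order of fold enrichment. Most summits lie 100 to 350 bp upstream, and RRPE is nearer to the start codon than the consensus in all 10 genes that have both within 400 bp.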

How the data were processed

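Peaks come from ChIP-seq of Abf1 before depletion, in 3 immunoprecipitations and 3 inputs. Paired reads were mapped to sacCer3 by the authors (HISAT2 2.0.5 in the submitters' processing notes), collapsed by molecular identifier and kept where the mapping was unique, and MACS2 2.1.1.20160309 then called peaks on the pooled replicates (q-value 0.001, fold enrichment of at least 2). The deposited fold enrichment is a ratio of pileup to background. The deposited −log10 p-values are from a Poisson model. The deposited score and q-values were not used. All 948 peak rows end within the chromosome lengths of the R64 reference. ORFs ran from start to stop codon, introns included. Sequences are RefSeq's R64. Pileup, assignment and motif functions were tested on simulated data. Shares have 95% Wilson intervals, and no significance test was run. Members, groups and lists were chosen with earlier results of these data known. Named were all members, with the fold enrichment of each listed summit, and with motif sequences from a fold enrichment of 10. Alternatives covered distance, ORF context, summits per interval, tRNA genes, fold enrichment, motif window and mismatches, and promoter length and element letters. Scripts ran in Python 3.11.15 (scipy 1.17.1, numpy 2.4.6, pandas 2.3.3), and matplotlib 3.10.9 drew the figures.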

Additional observations from a re-analysis of the deposited data

How the results depend on the processing

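Of 43 combinations of a result and an alternative, 39 stayed within the counting interval of the share or median, or within 1.5 times the count. The 39 include the keeping of upstream summits only, which could not change any value. All member summits and the 26 highest summits of the second list lie upstream already. The tally is therefore not a measure of robustness. When peaks under a fold enrichment of 4 were left out, the median over the member summits was 12.2 by construction, and the second list of biogenesis genes had 16 with a summit. The share of matches with a G or C at −8 bp then rose from 38.9% to 58.3% (7 of 12). This counted as unchanged only because the interval is wide (20.3% to 61.4%). With the motif midpoint within 50 bp, 15 of 21 member summits (71.4%) had the consensus. With 1 mismatch allowed, 95.2% of the member summits had the consensus, and with GATGAG in place of GCGATGAG, PAC was found in 56 members (and in 23.5% of all genes). The count of members with a summit was 14 to 20 under its alternatives. At a fold enrichment of 4 or more, the 14 members (20.9%) stand against 9.88% of all genes. Under the other alternatives the share over all genes was not computed, so the difference from all genes was not tested there. Counting error is 1.58% of the fragments at SOF1 and 5.86% at NOC2, the highest and lowest member summits. No paired analysis was possible because the peak list is a single pooled set with no value for any replicate.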

Other observations

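NOP14 and NOC4 code for proteins that bind each other, and their promoters share some features and differ in others. Both lack an exact Abf1 consensus beside a summit of almost the same fold enrichment (17.3 and 17.2). Both have a divergent partner gene, as is the case at 8 of the 21 member summits. Both also hold the Reb1 element TTACCCG on either strand, Reb1 being another general regulatory factor, with its centre 169 and 167 bp upstream of the start codon. This element was searched for after the values were seen. It was found in 8 of the 67 members (11.9%) and in 9.15% of all genes, and in no other of the 20 members with a summit. The NOC4 summit lies 742 bp from NOC4 and thus far from its Reb1 element. That summit is nearer to the start codon of ASN1 (455 bp). In the 400 bp before the start codon NOP14 holds PAC and RRPE, and NOC4 holds neither. Reb1 binding was not analysed here.

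Bases inside the Abf1 motif were read at the 18 matches beside member summits. At −1 bp, where any base is allowed, a T was present in 12 (66.7%), against 60.0% of the 623 matches beside all summits. At −2 bp, where the consensus allows only C or T, a T was present in 12 (66.7%), against 50.9%. With 18 sites these shares rest on few sequences.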
